A study of Mus musculus with 8 samples.

Results

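The transcripts of 35 genes that carry a cell through mitosis were followed in mouse liver 2 days after a chemical injury. The genes were chosen by symbol for their textbook roles: entry into mitosis (Mki67, Top2a, Foxm1, Ccna2, Ccnb1, Ccnb2, Cdk1, Cdca3), mitotic kinases and the chromosomal passenger complex (Plk1, Aurka, Aurkb, Birc5, Cdca8), the spindle checkpoint (Bub1, Bub1b, Ttk, Mad2l1), the anaphase-promoting complex (Cdc20, Ube2c), centromere and kinetochore (Cenpa, Cenpe, Cenpf, Ndc80, Nuf2), spindle motors and spindle proteins (Kif11, Kif2c, Kif4, Tpx2, Nusap1, Hmmr) and cytokinesis (Kif20a, Kif23, Prc1, Anln, Ect2). They were also chosen with earlier results of these data known. All 35 were among the 22155 genes of the count table, and all 35 passed the low-count filter that left 13999 genes to test.

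Adult mice of 8 to 10 weeks, C57BL/6 by label, drank a liquid diet with 1% ethanol for 2 days and 2% ethanol for 10 days, and then received carbon tetrachloride (CCl4). This toxin kills hepatocytes around the central vein, and its single dose was 1 µl per g, given 2 days before liver was collected. All 8 libraries came from livers injured in this way. The Yap controls were Yap1 floxed homozygotes infected with a GFP virus, and the Yap1 knockouts were given iCre virus, which removes Yap1, the coactivator restrained by the Hippo pathway, from hepatocytes only. The Ctgf controls were Ctgf floxed homozygotes, for which the labels name no virus, and the Ctgf knockouts are labelled conditional, with a Cre driver not given in the sources used here. Each of these 4 groups had 2 libraries. Whether replicates are separate mice is not stated in the labels, and the p-values therefore reflect only the spread of these libraries, which may be technical.

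Most hepatocytes of an adult liver are out of the cell cycle and re-enter it when tissue is lost. The genes of the final phase are then switched on together: cyclins A and B activate CDK1, the kinases PLK1, Aurora A and Aurora B build the spindle, the checkpoint holds anaphase until every kinetochore is attached, and CDC20 with the anaphase-promoting complex then destroys cyclin B and lets the chromosomes part. Their transcripts are kept low in resting cells by the DREAM complex and raised in G2 by B-MYB and FOXM1, all of which act at a promoter element called the cell cycle genes homology region (CHR). Endothelial cells, stellate cells and macrophages of an injured liver divide too, and in RNA of whole liver more cells of a type and more RNA per cell cannot be told apart.

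Total counts ran from 26904021 to 33488609 per library, and levels are given in CPM, counts per 1000000 of the scaled library size. A count of 3 corresponded to 0.083 to 0.123 CPM, and intervals on counts cover counting error only. Yap1 stood at 107 and 76.1 CPM in the Yap controls and at 31.0 and 32.5 in the Yap1 knockouts, which did not pass the test (log2 fold change -1.53, adjusted p = 0.0557). Ctgf measured 28.8 and 32.1 CPM in its controls. Under the Ctgf knockout label it measured 8.02 CPM in replicate 1 and 49.2 CPM in replicate 2, so that replicate 2 goes against its label. Yap control replicate 2 stands apart from the other libraries: 12 exocrine pancreas genes summed to 11772 CPM there against 3.13 to 7.48 CPM elsewhere, with 11 of the 12 at 0 counts in at least 1 library. The counts past the test and the medians of the 35 genes are given with and without these libraries, and the other values with them.

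Both Yap groups held more mitosis transcripts than both Ctgf groups. Summed over the 35 genes, the level was 251 and 135 CPM in the Yap controls, 104 and 162 CPM in the Yap1 knockouts, 35.3 and 43.2 CPM in the Ctgf controls and 25.7 and 32.2 CPM in the labelled Ctgf knockouts. The lowest library of the Yap line was thus above the highest of the Ctgf line, while the Yap groups overlapped each other. Gene by gene, all 4 libraries of the Yap line lay above all 4 of the Ctgf line for 34 of the 35 genes, against 11.5% of all genes tested. The exception was Prc1. For some of the 34 the gap was narrow. The lowest Yap line library and the highest Ctgf line library were at 2.34 and 2.22 CPM for Cdca8. They were at 5.10 and 4.58 CPM for Mad2l1 and at 2.96 and 2.45 CPM for Ect2.

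In the comparison of the control groups, Yap over Ctgf, 19 of the 35 genes were higher in the Yap controls and 0 were lower by edgeR's quasi-likelihood test with adjusted p under 0.05, where 1.27% of all genes tested were higher and 1.11% lower. The log2 fold change was above 0 for all 35, and its median was 2.82, against 0.041 over all genes tested. Yap controls lay above Ctgf controls in every library for 34 of 35 genes, against 26.1% of all genes. The list was chosen with earlier results of these data known, so these shares describe it and give no independent support. The groups differ in the floxed allele and in the virus, and possibly in handling, and these cannot be told apart. The count of 19 also rests on the 4-group fit. It was 27 without Yap control replicate 1, 27 without replicate 2, 15 without either library labelled Ctgf knockout, 35 without both doubted libraries (Yap control replicate 2 and labelled Ctgf knockout replicate 2), and 0 without any one of the Yap1 knockouts or the Ctgf controls, while the median stayed between 2.46 and 3.10 when any 1 library was left out.

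Of the 8 genes of mitotic entry, 6 were higher in the Yap controls. Mki67, which encodes the coat protein of mitotic chromosomes used to stain dividing cells, stood at 36.8 and 11.4 CPM in the Yap controls, 13.5 and 20.4 in the Yap1 knockouts, 1.75 and 2.76 in the Ctgf controls and 0.887 and 1.21 in the labelled Ctgf knockouts. Its mean was 24.1 ± 18.0 CPM (SD, n = 2) in the Yap controls and 2.26 ± 0.711 CPM (SD, n = 2) in the Ctgf controls. Mki67 differed by 3.42 ± 0.58 (SE) on the log2 scale (adjusted p = 0.0354). The Yap line was higher in every library, and Yap control replicate 1 was far above replicate 2. Top2a, the topoisomerase that untangles sister chromatids, was likewise highest in Yap control replicate 1, at 27.5 and 10.7 CPM in the Yap controls and 8.92 and 15.6 in the Yap1 knockouts, against 1.63 and 2.16 in the Ctgf controls and 0.851 and 0.922 under the Ctgf knockout label. Top2a differed by 3.33 ± 0.51 (SE) on the log2 scale (adjusted p = 0.0322).

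Cdk1, the kinase that drives entry into mitosis, stood at 9.79 and 6.67 CPM in the Yap controls, 3.75 and 7.20 in the Yap1 knockouts, 1.02 and 1.31 in the Ctgf controls and 0.497 and 0.827 in the labelled Ctgf knockouts. Cdk1 differed by 2.82 ± 0.45 (SE) on the log2 scale (adjusted p = 0.0332). Its partner Ccna2, cyclin A2, measured 10.3 and 5.89 CPM in the Yap controls and 4.34 and 7.61 in the Yap1 knockouts, against 0.924 and 1.05 in the Ctgf controls and 0.922 and 0.763 under the Ctgf knockout label. Ccna2 differed by 3.03 ± 0.44 (SE) on the log2 scale (adjusted p = 0.0278). In both genes the lowest Yap library was above the highest Ctgf library. Of the exon bases of Ccna2, 12.5% overlap Exosc9, and 17.3% of its transcript is near-identical to that gene. Cdca3, which helps to degrade WEE1, the kinase that restrains CDK1, was at 5.12 and 5.64 CPM in the Yap controls, 2.21 and 4.08 in the Yap1 knockouts, 0.956 and 0.768 in the Ctgf controls and 0.709 and 1.34 in the labelled Ctgf knockouts. Cdca3 differed by 2.64 ± 0.47 (SE) on the log2 scale (adjusted p = 0.0384). Ccnb1, cyclin B1, was close to the limit of counting in the Ctgf line, with 1 and 0 counts in the controls and 2 and 2 under the knockout label, against 52 and 27 counts in the Yap controls and 15 and 31 in the Yap1 knockouts. The difference passed the test (adjusted p = 0.0291), and the ratio of the pooled control counts, 79 to 1, was 87.0 after scaling with an exact counting interval of 15.2 to 3477. Of the Ccnb1 transcript, 51.9% is near-identical to copies elsewhere in the genome (Ccnb1-ps, Gm12856 and Gm8416), so reads may have been split or dropped and its level is uncertain.

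The remaining entry genes did not pass. Foxm1, the transcription factor of G2 genes, stood at 5.86 and 3.05 CPM in the Yap controls, 2.67 and 4.36 in the Yap1 knockouts, 1.59 and 1.88 in the Ctgf controls and 1.53 and 0.827 in the labelled Ctgf knockouts. Foxm1 had a log2 difference of 1.36 ± 0.48 (SE) with adjusted p = 0.152. Ccnb2, cyclin B2, was at 2.49 and 3.75 CPM in the Yap controls and 1.25 and 1.70 in the Yap1 knockouts, against 0.446 and 0.910 in the Ctgf controls and 0.639 and 0.604 under the Ctgf knockout label. Ccnb2 had a log2 difference of 2.18 ± 0.48 (SE) with adjusted p = 0.0593. For Foxm1 the lowest Yap library, at 2.67 CPM, was only a little above the highest Ctgf library, at 1.88.

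Of the kinases and the chromosomal passenger complex, 3 of 5 genes were higher in the Yap controls. Birc5, the passenger protein survivin, had the smallest p of the 35, at 4.42 and 3.46 CPM in the Yap controls, 1.55 and 2.53 in the Yap1 knockouts, 0.287 and 0.284 in the Ctgf controls and 0.284 and 0.382 in the labelled Ctgf knockouts. Birc5 differed by 3.77 ± 0.46 (SE) on the log2 scale (adjusted p = 0.0234). That is a 13.6-fold difference. The kinase it anchors, Aurkb, was at 6.19 and 3.58 CPM in the Yap controls and 1.84 and 3.63 in the Yap1 knockouts, against 0.414 and 0.341 in the Ctgf controls and 0.213 and 0.254 under the Ctgf knockout label. Aurkb differed by 3.69 ± 0.52 (SE) on the log2 scale (adjusted p = 0.0265). Both Yap groups exceeded both Ctgf groups several-fold in every library for both genes. Plk1, the kinase of spindle assembly and mitotic exit, stood at 3.71 and 2.88 CPM in the Yap controls, 1.58 and 3.18 in the Yap1 knockouts, 0.351 and 0.427 in the Ctgf controls and 0.106 and 0.223 in the labelled Ctgf knockouts. Plk1 differed by 3.07 ± 0.52 (SE) on the log2 scale (adjusted p = 0.0360). Aurka, the centrosomal Aurora kinase, was at 3.73 and 3.95 CPM in the Yap controls and 1.91 and 2.70 in the Yap1 knockouts, against 0.861 and 1.31 in the Ctgf controls and 0.993 and 1.72 under the Ctgf knockout label. Aurka had a log2 difference of 1.82 ± 0.43 (SE) with adjusted p = 0.0674. Cdca8, the passenger protein borealin, also missed the threshold, at 5.37 and 5.39 CPM in the Yap controls, 2.34 and 2.35 in the Yap1 knockouts, 2.01 and 2.22 in the Ctgf controls and 1.10 and 1.94 in the labelled Ctgf knockouts. Cdca8 had a log2 difference of 1.35 ± 0.36 (SE) with adjusted p = 0.0885.

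The checkpoint kinases Bub1 and Ttk were higher in the Yap controls, while Bub1b and Mad2l1 did not pass. Bub1 was at 4.51 and 1.85 CPM in the Yap controls, 1.02 and 2.11 in the Yap1 knockouts, 0.191 and 0.341 in the Ctgf controls and 0.0709 and 0.0318 in the labelled Ctgf knockouts. Bub1 differed by 3.56 ± 0.67 (SE) on the log2 scale (adjusted p = 0.0440). Ttk, the kinase that starts checkpoint signalling at the kinetochore, was at 2.32 and 0.947 CPM in the Yap controls and 0.724 and 1.42 in the Yap1 knockouts, against 0.128 and 0.142 in the Ctgf controls and 0.142 and 0.0954 under the Ctgf knockout label. Ttk differed by 3.57 ± 0.67 (SE) on the log2 scale (adjusted p = 0.0441). In the Ctgf line both sat between 0.0318 and 0.341 CPM, near the floor of counting. Bub1b, the BUBR1 subunit of the checkpoint complex, measured 8.32 and 4.53 CPM in the Yap controls, 4.54 and 6.99 in the Yap1 knockouts, 1.15 and 1.28 in the Ctgf controls and 0.639 and 1.65 in the labelled Ctgf knockouts. Bub1b had a log2 difference of 2.40 ± 0.53 (SE) with adjusted p = 0.0591. Mad2l1, which encodes the checkpoint protein that binds CDC20, was at 9.54 and 6.79 CPM in the Yap controls and 4.43 and 4.58 in the Ctgf controls. Over all 4 libraries of each line, knockouts included, its ratio of means was the smallest of the 35, at 1.70. Mad2l1 had a log2 difference of 0.86 ± 0.29 (SE) with adjusted p = 0.147.

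Among the partners of the anaphase-promoting complex, Ube2c, its ubiquitin-conjugating enzyme, was higher in the Yap controls, at 3.98 and 3.0 CPM in the Yap controls, 1.25 and 2.18 in the Yap1 knockouts, 0.574 and 0.540 in the Ctgf controls and 0.674 and 0.445 in the labelled Ctgf knockouts. Ube2c differed by 2.64 ± 0.46 (SE) on the log2 scale (adjusted p = 0.0379). Of its exon bases 22.8% overlap Tnnc2 on the other strand, and without a stated strand setting reads of the pair cannot be told apart. Cdc20, the activator of the complex, was at 2.88 and 3.05 CPM in the Yap controls and 1.32 and 2.39 in the Yap1 knockouts, against 0.893 and 0.512 in the Ctgf controls and 0.461 and 0.318 under the Ctgf knockout label. Cdc20 had a log2 difference of 2.07 ± 0.48 (SE) with adjusted p = 0.0653.

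Of the 5 centromere and kinetochore genes, 3 were higher in the Yap controls. Cenpe, the kinetochore motor that aligns chromosomes, stood at 7.30 and 3.0 CPM in the Yap controls, 2.40 and 4.12 in the Yap1 knockouts, 0.510 and 0.427 in the Ctgf controls and 0.390 and 0.477 in the labelled Ctgf knockouts. Cenpe differed by 3.46 ± 0.55 (SE) on the log2 scale (adjusted p = 0.0332). The microtubule-binding pair Ndc80 and Nuf2 were low in every library. Ndc80 was at 2.41 and 1.23 CPM in the Yap controls and 0.889 and 1.45 in the Yap1 knockouts, against 0.128 and 0.227 in the Ctgf controls and 0.0355 and 0.127 under the Ctgf knockout label (log2 fold change 3.33 ± 0.66 (SE), adjusted p = 0.0478), and Nuf2 at 2.88 and 1.61 CPM in the Yap controls, 1.12 and 1.83 in the Yap1 knockouts, 0.128 and 0.227 in the Ctgf controls and 0 and 0.0636 in the labelled Ctgf knockouts. Nuf2 differed by 3.62 ± 0.69 (SE) on the log2 scale (adjusted p = 0.0452). Cenpf, a large kinetochore protein, lay just short of the threshold, at 1.35 to 4.04 CPM in the Yap line and 0.0954 to 0.427 in the Ctgf line. Cenpf had a log2 difference of 3.37 ± 0.69 (SE) with adjusted p = 0.0504. Cenpa, the centromeric histone, did not pass either, with 8.27 to 10.5 CPM in the Yap controls and 3.22 to 4.81 in the Ctgf controls. Cenpa had a log2 difference of 1.23 ± 0.35 (SE) with adjusted p = 0.102.

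Of the 6 spindle genes, Kif4, Tpx2 and Hmmr were higher in the Yap controls. Tpx2, the activator of Aurora A on the spindle, stood at 7.69 and 3.99 CPM in the Yap controls, 3.23 and 5.29 in the Yap1 knockouts, 0.733 and 0.796 in the Ctgf controls and 0.284 and 0.413 in the labelled Ctgf knockouts. Tpx2 differed by 2.93 ± 0.47 (SE) on the log2 scale (adjusted p = 0.0332). The chromosome motor Kif4 was at 2.93 and 2.02 CPM in the Yap controls and 1.68 and 2.42 in the Yap1 knockouts, against 0.223 and 0.427 in the Ctgf controls and 0.426 and 0.413 under the Ctgf knockout label (log2 fold change 2.91 ± 0.49 (SE), adjusted p = 0.0354), with 15.1% of its exon bases overlapping Pdzd11. For Hmmr, a spindle pole protein and hyaluronan receptor, the values were 4.07 and 1.48 CPM in the Yap controls, 1.35 and 2.42 in the Yap1 knockouts, 0.191 and 0.313 in the Ctgf controls and 0.319 and 0.223 in the labelled Ctgf knockouts. Hmmr differed by 3.44 ± 0.66 (SE) on the log2 scale (adjusted p = 0.0451). The Yap and Ctgf libraries did not overlap in any of the 3. Nusap1, which bundles spindle microtubules, was at 3.46 and 2.14 CPM in the Yap controls and 0.987 and 2.28 in the Yap1 knockouts, against 0.510 and 0.483 in the Ctgf controls and 0.0709 and 0.127 under the Ctgf knockout label. Nusap1 had a log2 difference of 2.49 ± 0.55 (SE) with adjusted p = 0.0591. The motor genes Kif11 and Kif2c ranged from 0.790 to 9.51 CPM in the Yap line and from 0.159 to 1.73 CPM in the Ctgf line, with adjusted p of 0.108 and 0.0579.

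Cytokinesis genes had the lowest median of the 7 role groups, 1.74 on the log2 scale, and 1 gene of 5 was past the test. That gene was Anln, the anillin scaffold of the contractile ring, at 8.43 and 3.91 CPM in the Yap controls, 6.55 and 8.13 in the Yap1 knockouts, 0.669 and 1.02 in the Ctgf controls and 0.816 and 0.477 in the labelled Ctgf knockouts. Anln differed by 2.86 ± 0.49 (SE) on the log2 scale (adjusted p = 0.0372). Kif20a, a motor of the central spindle, was at 5.12 and 2.80 CPM in the Yap controls and 2.63 and 3.60 in the Yap1 knockouts, against 0.924 and 1.45 in the Ctgf controls and 1.28 and 1.11 under the Ctgf knockout label (log2 fold change 1.74 ± 0.44 (SE), adjusted p = 0.0808), and 29.3% of its exon bases overlap Cdc23. Prc1, which crosslinks the microtubules of the midzone, was the gene whose lines overlapped, at 8.21 and 3.54 CPM in the Yap controls, 2.93 and 5.36 in the Yap1 knockouts, 3.16 and 3.75 in the Ctgf controls and 1.42 and 1.56 in the labelled Ctgf knockouts. Prc1 had a log2 difference of 0.77 ± 0.46 (SE) with adjusted p = 0.357. Its Yap1 knockout replicate 1 lay below both Ctgf controls. Of the Prc1 transcript, 30.1% is near-identical to other genes (Echs1, Hspa4l, Rccd1 and Zfp940), and 11.1% of its exon bases overlap Rccd1, so its level is uncertain. Kif23 was at 4.08 to 10.7 CPM in the Yap line and 0.745 to 1.75 in the Ctgf line, and Ect2 at 2.96 to 7.33 and 1.45 to 2.45. These genes, whose proteins place the cleavage furrow, had log2 fold changes of 2.44 (adjusted p = 0.0654) and 1.14 (adjusted p = 0.187).

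**Figure D1:**
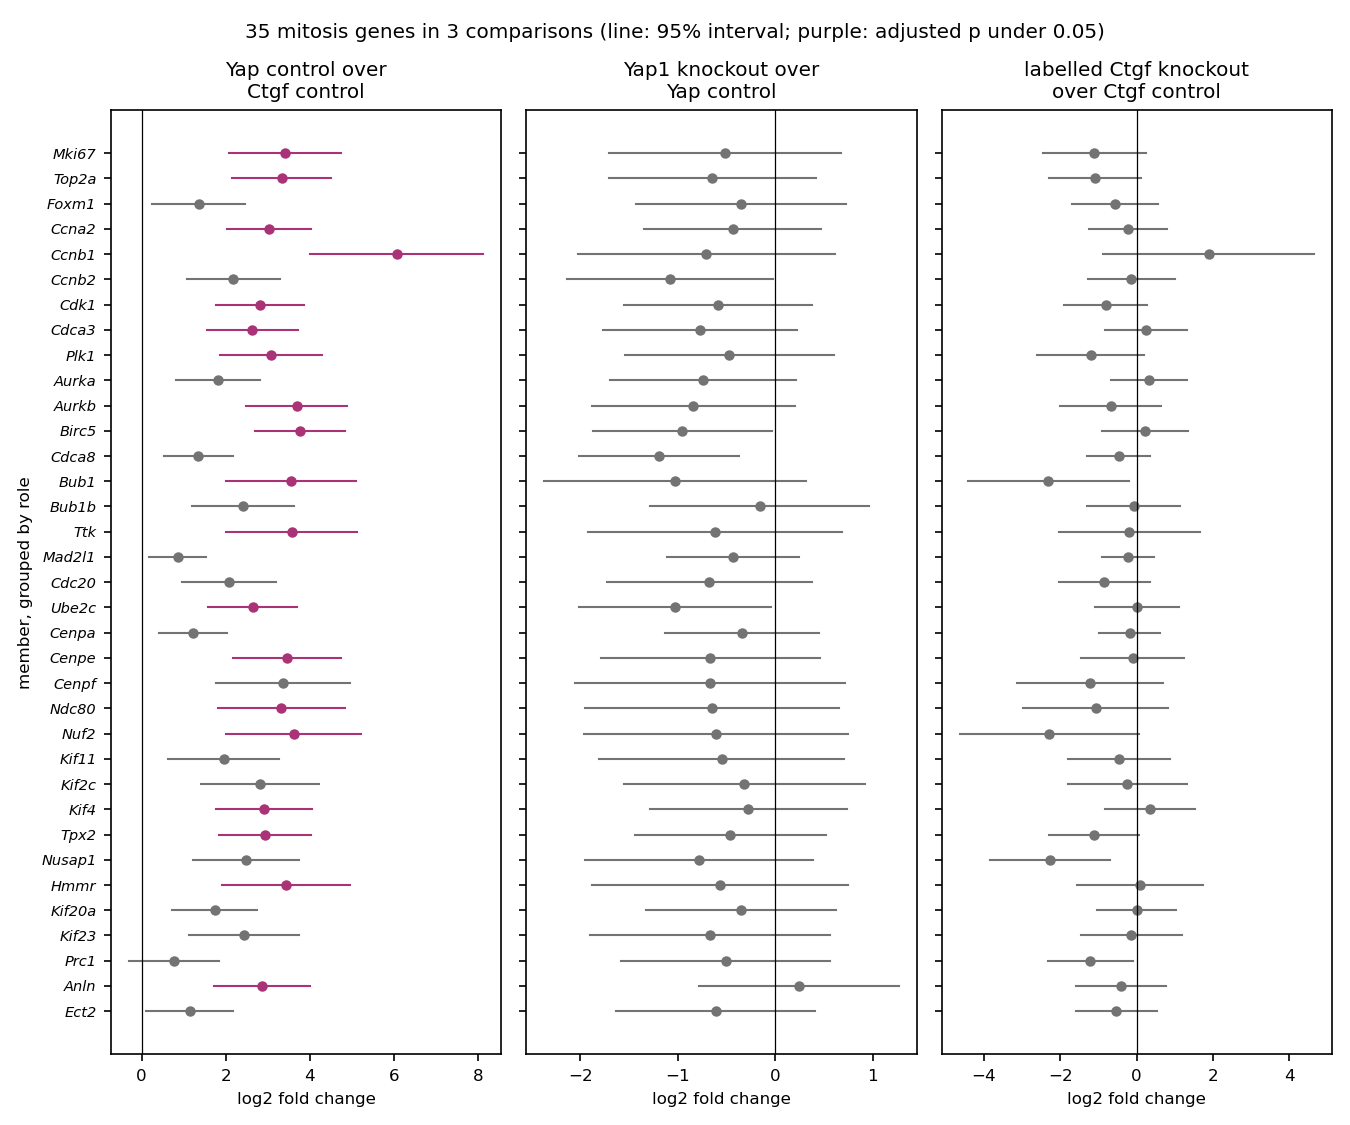
Log2 fold change of each of the 35 genes in 3 comparisons (Yap1 knockout over Yap control, Ctgf knockout over Ctgf control, Yap control over Ctgf control), with bars for the 95% interval of the edgeR fit and filled points for genes past adjusted p of 0.05. The horizontal scales differ between panels, all 35 points lie above 0 in the comparison of controls with 19 filled, and the Ccnb1 value there rests on 1 count in the Ctgf controls.

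The upstream sequences of the genes were also examined. The genes were chosen for roles in mitosis, and the CHR is a known element of such genes. The motif shares below therefore describe the list and not these libraries. RefSeq promoters of GRCm38.p6, from 250 bases before to 50 after the start, were found for 30 of the 35 genes, and Foxm1, Ccna2, Aurkb, Tpx2 and Kif20a were not matched. A CHR, searched as TTTGAA or TTCGAA on both strands (the latter is its own reverse complement), was present in 24 of the 30, or 80.0%, against 16.9% of 10812 tested genes with a promoter. CCAAT, the letters bound by NF-Y, was searched on both strands and was present in 23 of 30, or 76.7%, against 42.6%. Both motifs were present in 21 of 30, or 70.0%, against 6.85% of tested genes and 7.52% of all 32851 promoters. A match describes letters in the window and not a bound site.

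Stretches upstream of the start are shown for 6 genes whose levels are given above, on the strand of the gene and 5′ to 3′, with both motifs in capitals (TTCAAA and ATTGG are the reverse complements of TTTGAA and CCAAT). Top2a holds 4 CHR among 6 CCAAT and Cdk1 holds 2 among 3. In Mki67 3 CCAAT precede 2 CHR, in Ccnb2 a CHR precedes 3 CCAAT, in Cdc20 a CHR lies between 2 CCAAT, and Bub1b holds 1 of each.
Mki67: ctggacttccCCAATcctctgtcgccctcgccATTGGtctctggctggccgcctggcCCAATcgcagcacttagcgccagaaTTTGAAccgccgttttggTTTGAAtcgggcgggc
Top2a: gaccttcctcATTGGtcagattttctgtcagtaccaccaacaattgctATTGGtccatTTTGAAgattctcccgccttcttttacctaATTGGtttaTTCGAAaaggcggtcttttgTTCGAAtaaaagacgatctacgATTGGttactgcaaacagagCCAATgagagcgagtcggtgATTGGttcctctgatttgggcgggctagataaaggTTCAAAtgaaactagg
Cdk1: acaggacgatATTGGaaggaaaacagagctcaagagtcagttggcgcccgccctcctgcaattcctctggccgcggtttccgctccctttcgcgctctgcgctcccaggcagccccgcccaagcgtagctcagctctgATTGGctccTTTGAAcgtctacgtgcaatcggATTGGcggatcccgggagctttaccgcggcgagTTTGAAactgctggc
Ccnb2: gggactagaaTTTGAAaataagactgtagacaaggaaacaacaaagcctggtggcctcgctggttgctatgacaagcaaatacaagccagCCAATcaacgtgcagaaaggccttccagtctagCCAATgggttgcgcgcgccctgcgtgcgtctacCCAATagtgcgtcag
Cdc20: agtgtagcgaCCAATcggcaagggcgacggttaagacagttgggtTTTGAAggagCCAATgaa
Bub1b: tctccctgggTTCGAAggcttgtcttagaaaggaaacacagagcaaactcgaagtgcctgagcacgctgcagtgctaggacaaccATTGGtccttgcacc
The positions are Mki67 at chr7:135716462-135716577 (minus strand), Top2a at chr11:99024197-99024426 (minus strand), Cdk1 at chr10:69352913-69353130 (minus strand), Ccnb2 at chr9:70421561-70421731 (minus strand), Cdc20 at chr4:118437344-118437406 (minus strand) and Bub1b at chr2:118598013-118598112 (plus strand). In the comparison of controls, Mki67, Top2a and Cdk1 were past the edgeR test. Ccnb2, Cdc20 and Bub1b lay a little short of it, with adjusted p of 0.0593, 0.0653 and 0.0591. All 6 carry both motifs and do not stand for the whole list. Birc5, Mad2l1, Nuf2 and Nusap1 held neither motif in the window, and Ccnb1 and Cenpe held CCAAT without a CHR. A link between the motifs and the fold changes was not tested.

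Lists of other cell cycle genes had lower medians than the 35 in the comparison of controls. A list of other mitosis genes, 49 of them tested, had a median log2 fold change of 1.75, with 48 above 0 and 11 past the test, all higher in the Yap controls. These were Cep55, which acts in the final cut between daughter cells (4.15), the motors Kif15 (4.01), Kif14 (3.79) and Kif18b (3.64), the kinases Melk (4.36) and Pbk (3.82), the kinetochore genes Knl1 (4.08), Cenpi (2.75) and Cenph (2.56), Troap (3.34) and Racgap1 (2.86), the partner of Kif23. S-phase genes had a median of 0.68, and 3 of 29 were higher: Uhrf1, which keeps DNA methylation at the replication fork (2.53, adjusted p = 0.0332), the helicase subunit Mcm5 (1.88, adjusted p = 0.0474) and the thymidine kinase Tk1 (1.90, adjusted p = 0.0493). G1 and E2F genes had a median of 0.18 with 0 of 14 past the test (7 unadjusted), E2f1 at 1.21 ± 0.33 (SE), adjusted p = 0.0964 and Ccne2 at -0.99 ± 0.28 (SE), adjusted p = 0.101 having the smallest p. Among 15 CDK inhibitors and arrest genes, with a median of 0.15, 1 was lower, the stress gene Gadd45a (-2.14, adjusted p = 0.0494).

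Among markers of liver cell types, 4 of 8 stellate cell markers were higher in the Yap controls as well, and most markers of the other types did not pass the test. Hepatocyte markers, the most abundant of the lists, were at 54609 and 92358 CPM summed in the Yap controls and 59397 and 56055 in the Ctgf controls, with 0 of 9 past the test (3 at an unadjusted p under 0.05). Stellate cell markers summed to 942 and 585 CPM in the Yap controls and 901 and 929 in the Yap1 knockouts, against 239 and 251 in the Ctgf controls and 222 and 193 under the Ctgf knockout label, and 4 of 8 were higher (Des, Col1a1, Col3a1 and Acta2, log2 fold changes of 2.51 to 4.52). Of the 8, 7 were above 0 and 1, Reln, was below, at 56.4 and 24.2 CPM in the Yap controls against 45.1 and 49.6 in the Ctgf controls. Lrat (43.9 and 17.3 against 22.1 and 32.4) and Rgs5 (116 and 58.9 against 72.8 and 82.7) overlapped between these groups too. Sinusoidal endothelial markers summed to 444 to 666 CPM in the Yap line and 323 to 399 in the Ctgf line, with 0 of 7 past the test (3 unadjusted). Monocyte and macrophage markers summed to 1062 to 2293 CPM in the Yap line and 259 to 622 in the Ctgf line, with 8 of 8 above 0 in the comparison of controls and 1, Gpnmb, past the test. None of the markers of these 4 lists was at 0 in any library, and their part in the level of the mitosis genes was not tested.

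The other marker lists were mixed, and their part was not tested either. Kupffer markers summed to 733 to 848 CPM in the Yap line and 357 to 1001 in the Ctgf line (0 of 7 past the test, 1 unadjusted). T and NK cell markers summed to 1.49 to 3.04 and 2.27 to 4.83 CPM (0 of 7, 0 unadjusted), with Nkg7, Gzma and Ncr1 at 0 in at least 1 library, and B cell markers to 2.18 to 3.91 and 4.68 to 10.6 CPM (0 of 5, 2 unadjusted). Neutrophil markers summed to 87.4 and 224 CPM in the Yap controls, 866 and 421 in the Yap1 knockouts and 57.2 to 166 in the Ctgf line. In the comparison of controls 4 of the 8 were above 0 and 4 below, and 1 passed, Camp, which was lower in the Yap controls. Camp was at 0.0277 and 0.0412 CPM there, below the floor of 3 counts, and at 1.69 and 1.76 CPM in the Ctgf controls. Biliary markers summed to 376 and 1478 CPM in the Yap controls and 373 and 311 in the Ctgf controls, of which Spp1, also on the monocyte and macrophage list, made 325 and 1357 and 228 and 162 CPM. Krt19, Krt7, Epcam and Cftr were at 1.44, 1.38, 1.88 and 0.166 CPM in Yap control replicate 1. In Yap control replicate 2, a doubted library, they were at 32.6, 6.42, 17.5 and 7.78 CPM. In the Ctgf controls Krt19 was at 1.34 and 1.31, Krt7 at 1.08 and 1.34, Epcam at 1.43 and 1.28 and Cftr at 0.0638 and 0.199. Their rise thus lay mainly in Yap control replicate 2. Of the 6 biliary markers, 5 were above 0, with a median log2 fold change of 2.47 over the list, and all 6 had an unadjusted p under 0.05. The 1 past the threshold, Sox9, was lower in the Yap controls, and Cftr was at 0 in 1 library or more. Erythroid markers ranged from 114 to 427 CPM in the Yap line and from 89.0 to 140 CPM in the Ctgf line (0 of 7, 3 unadjusted).

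Within the Yap line, no mitosis gene passed the test between the Yap1 knockouts and their controls, and for most genes the groups overlapped. Of the 35 genes, 0 passed the edgeR test in either direction, where 3 genes of all tested were higher (0.0214%) and 1 was lower (0.00714%), and 4 of the 35 had an unadjusted p under 0.05. DESeq2 also called 0 of the 35. The Yap controls are shared with the comparison of control groups above. The log2 fold change was below 0 for 34 of 35 genes, with a median of -0.61 against -0.0046 over all genes. Beside it, 8 of 8 neutrophil markers were above 0 (median 2.64, 0 past the test, 8 at an unadjusted p under 0.05), as were 5 of 7 erythroid markers (median 1.25, 0 past the test, 3 unadjusted). Biliary markers had a median of -1.24, with 5 of 6 below 0 (0 past the test, 2 unadjusted). For Krt19, Krt7, Epcam, Cftr and Spp1 both knockouts lay above Yap control replicate 1 and below replicate 2, a doubted library. Krt19, for example, was at 1.44 and 32.6 CPM in the controls and 3.06 and 2.42 in the knockouts. The fall of the biliary list thus rested on Yap control replicate 2. The part of these markers in the shift was not tested. Knockout libraries lay below both controls for 9 of 35 genes (Ccnb1, Ccnb2, Cdca3, Aurka, Birc5, Cdca8, Cdc20, Ube2c and Cenpa), against 20.8% of all genes, and above both for 0, against 23.6%.

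The smallest p belonged to Cdca8, at 5.37 and 5.39 CPM in the controls and 2.34 and 2.35 in the knockouts, where the replicates were close and the groups apart (log2 fold change -1.20 ± 0.35 (SE), adjusted p = 0.236, 95% interval -2.02 to -0.38). It passed in 1 of 15 alternative settings, the one without both doubted libraries, and its adjusted p ranged from 0.0496 to 0.834 over them. Ube2c (-1.03 ± 0.43 (SE), adjusted p = 0.353), Birc5 (-0.95 ± 0.40 (SE), adjusted p = 0.353) and Ccnb2 (-1.08 ± 0.46 (SE), adjusted p = 0.357) followed, again without overlap between groups. For Mki67, by contrast, the knockouts (13.5 and 20.4 CPM) lay between the controls (11.4 and 36.8), and the interval of the log2 fold change, -1.71 to 0.68, allowed a large change either way (-0.51 ± 0.52 (SE), adjusted p = 0.644). Top2a (-0.64 ± 0.46 (SE), adjusted p = 0.523), Cdk1 (-0.59 ± 0.42 (SE), adjusted p = 0.522) and Aurkb (-0.84 ± 0.45 (SE), adjusted p = 0.427) overlapped too. Anln, at 6.55 and 8.13 CPM in the knockouts and 3.91 and 8.43 in the controls, was the 1 gene above 0 (0.24 ± 0.44 (SE), adjusted p = 0.804).

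The replicates themselves differed by as much as the groups. Yap control replicate 1 exceeded replicate 2 in 30 of 35 genes, by a median log2 difference of 0.82, and Yap1 knockout replicate 2 exceeded replicate 1 in all 35, by a median of 0.76. The median fold change of the 35, in log2, was -0.0063 without Yap control replicate 1, -0.96 without Yap control replicate 2 (and -0.96 without both doubted libraries), -0.29 without Yap1 knockout replicate 1 and -1.04 without Yap1 knockout replicate 2. In the control pair the difference grew with gene length: across the 35 genes its Pearson r with log2 exon length was 0.74, with a median of 0.35 in the 11 shortest and 1.16 in the 12 longest, and across 13784 genes r was 0.40. Genes are not independent replicates, and these r are descriptions. In the knockout pair r was -0.18 across the 35 genes. Against the mean of the other libraries, r with length over all genes was -0.38 for Yap control replicate 2 and -0.12 to 0.18 for the rest. The part of this difference in the fold changes was not tested, and the median log2 fold change was -0.77 in the 11 shortest genes and -0.58 in the 12 longest. Across the 35 genes the fold change of the Yap1 knockout had a Pearson r of 0.38 with log2 exon length. Of the genes whose knockouts lay below both controls, Ccnb1, Ccnb2, Cdca3, Aurka, Birc5, Cdc20 and Ube2c are among the 11 shortest. Cdca8 and Cenpa are not.

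**Figure D2:**
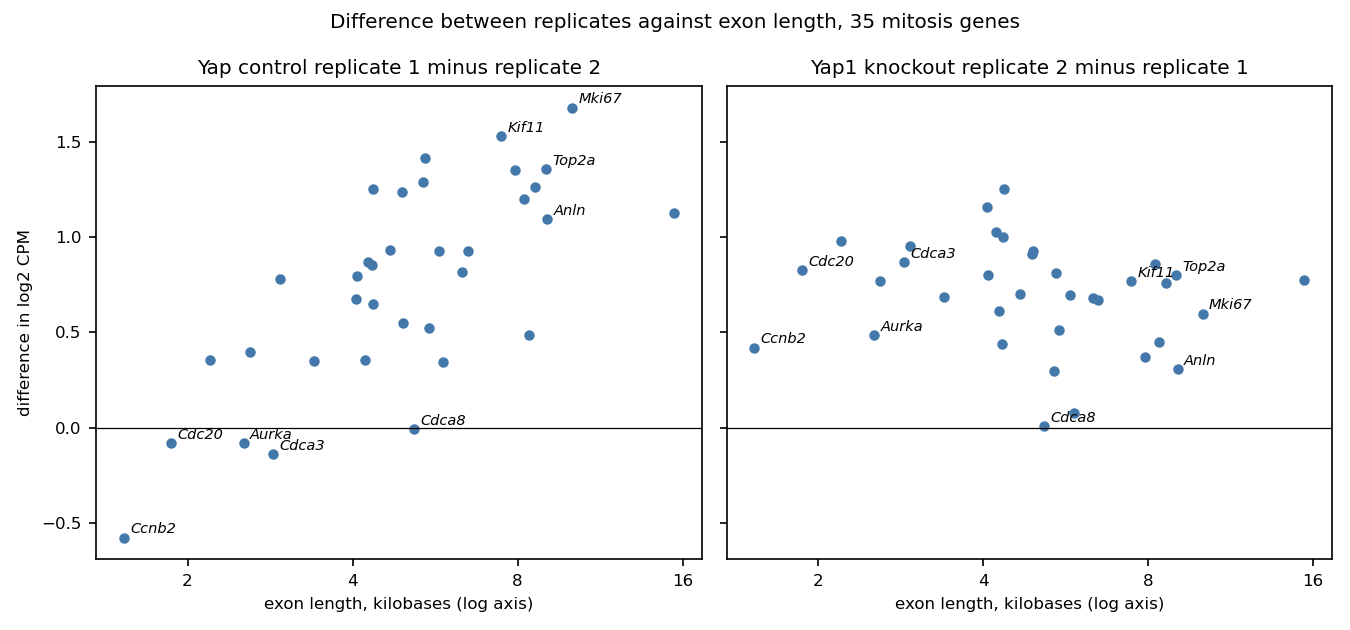
Log2 difference between the replicates of each Yap group for the 35 genes, against exon length in bases on a log axis, a point per gene. In the control pair the points climb with length (Pearson r of 0.74), and in the knockout pair all 35 points are above 0 with little slope (r of -0.18).

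Lists of other cell cycle genes also held 0 genes past the edgeR test in the Yap1 comparison, with 7 mitosis, 2 S-phase, 2 G1 and E2F and 2 inhibitor genes at an unadjusted p under 0.05. The median log2 fold change was -0.54 for other mitosis genes (45 of 49 below 0), -0.35 for S-phase genes (26 of 29 below 0), -0.10 for G1 and E2F genes and 0.27 for CDK inhibitors and arrest genes. Ccnd1, cyclin D1, the G1 cyclin, came nearest, at 78.6 and 105 CPM in the controls and 22.4 and 26.1 in the knockouts (-1.92 ± 0.26 (SE), adjusted p = 0.0557), but missed the threshold. It passed in 4 of 15 alternative settings, with adjusted p from 5.1e-08 to 0.587 over them. Spc25 (-1.34) and Nek2 (-1.10) had the smallest p among mitosis genes, Mcm10 (-1.03) and Mcm7 (-0.66) in S phase, E2f1 (-0.92) after Ccnd1 in G1, and Gadd45a (1.5) and Cdkn1a (0.55) among inhibitors. Apart from Ccnd1, their adjusted p ran from 0.173 to 0.355. Of the 15 alternatives, Spc25 passed in 3, Mcm10 and Gadd45a in 2 each, Nek2, Mcm7 and Cdkn1a in 1 each, and E2f1 in 0.

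Within the Ctgf line, 0 of the 35 genes passed the edgeR test, as did 0 of all genes tested (0%), with 3 of the 35 and 277 of all genes at an unadjusted p under 0.05, and with DESeq2 calling 4 genes in all and 0 of the 35. The log2 fold change was below 0 for 27 genes and above 0 for 8, with a median of -0.40 against 0.0064 over all genes. This median was -0.61 without the library labelled Ctgf knockout replicate 2, which goes against its label, and -0.38 without replicate 1. It was -0.53 without Ctgf control replicate 1 and -0.20 without Ctgf control replicate 2. In the same comparison 7 of 7 Kupffer markers (median -0.75, 4 at an unadjusted p under 0.05), 8 of 8 monocyte and macrophage markers (median -0.93, 0 unadjusted) and 8 of 8 neutrophil markers (median -1.03, 3 unadjusted) were below 0, with 0 past the test, and their part was not tested. Both labelled knockouts lay below both controls for 18 of 35 genes, Mki67, Top2a, Cdk1, Plk1 and Aurkb among them, against 16.8% of all genes, and above both for 1, Ccnb1, against 15.5%.

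The values of the 3 genes with the smallest p rested on few reads in part. Nusap1 measured 0.510 and 0.483 CPM in the Ctgf controls, against 0.0709 and 0.127 CPM under the knockout label (-2.26 ± 0.68 (SE), adjusted p = 1). Bub1, at 0.191 and 0.341 CPM in the controls, was at 0.0709 and 0.0318 under the knockout label, below the floor of 3 counts (-2.32 ± 0.91 (SE), adjusted p = 1). Prc1, the best counted of the 3, was at 3.16 and 3.75 against 1.42 and 1.56 CPM (-1.21 ± 0.48 (SE), adjusted p = 1). The near-identity and overlap of Prc1 given above apply here too. The median was -0.25 for other mitosis genes, -0.20 for S-phase genes, -0.07 for G1 and E2F genes and 0.09 for CDK inhibitors, with 0 past the test in each and 0 mitosis, 0 S-phase, 1 G1 and E2F and 0 inhibitor genes at an unadjusted p under 0.05. Among them Pbk (-2.06), Fam64a (-2.73), Mcm10 (0.62), Mcm6 (-0.72), Ccnd1 (-1.06), E2f8 (-0.54), Cdkn1a (0.38) and Cdkn2c (0.40) had the smallest p (adjusted p = 1 for each).

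The effects of the deletions were compared directly. For the Yap1 effect minus the Ctgf effect, 0 of the 35 genes passed the edgeR test, as did 0 of all genes (0%), with 0 of the 35 and 1242 of all genes at an unadjusted p under 0.05, and DESeq2 called 142 genes and 0 of the 35. The median was -0.08, with 14 genes above 0 and 21 below. It was -0.31 without both doubted libraries, 0.27 without Yap control replicate 1, 0.20 without Yap1 knockout replicate 1 and -0.46 without Yap control replicate 2, so its direction rests on single libraries. The smallest p belonged to Ccnb1 (adjusted p = 0.591), Birc5 (-1.18 ± 0.63 (SE), adjusted p = 0.597) and Aurka (-1.06 ± 0.60 (SE), adjusted p = 0.607). Medians were -0.16 for other mitosis genes, -0.09 for S-phase genes, 0.14 for G1 and E2F genes and -0.02 for inhibitors, also with 0 past the test and 0 mitosis, 1 S-phase, 1 G1 and E2F and 1 inhibitor genes at an unadjusted p under 0.05.

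Per kilobase of exon, counted over all annotated transcripts of a gene, the order of the genes differed between the lines. In the Yap line the highest mean levels were those of Mki67 (2.04 CPM per kb), Top2a (1.74), Ccna2 (1.72), Ccnb2 (1.5) and Cdca3 (1.49), and the lowest were Cenpf (0.155), Ndc80 (0.230) and Ccnb1 (0.244). In the Ctgf line Cenpa (0.644), Mad2l1 (0.497), Aurka (0.482), Ccnb2 (0.424) and Ect2 (0.367) led, and Mki67 (0.164) and Top2a ranked 18 and 19 of 35.

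The likeness of the genes across the 8 libraries is given as a description, since the difference between the lines enters each r. The Pearson r of each gene's log2 CPM with the mean of the other 34 ran from 0.81 for Cdca8 and 0.82 for Prc1 to 0.99 for Aurkb. Within the 4 libraries of the Yap line the lowest were Anln (0.39) and Ccnb2 (0.45). Within the 4 libraries of the Ctgf line, where many counts are low, r was below 0 for Ccnb1 (-0.97), Ube2c (-0.31), Birc5 (-0.29), Kif4 (-0.23), Cdca3 (-0.13) and Hmmr (-0.08), and near 0 for Aurka (0.02). Outside the 35, and among 12386 candidates with a mean of at least 1 CPM, the genes most like their mean over the 8 libraries were Racgap1 (r = 0.994), Uhrf1 (0.988), Pclaf (0.988), Chtf18 (0.987), Incenp (0.987), Ppic (0.984), Ppp1r3e (0.983), Rcn3 (0.983), Kif15 (0.983) and Dlgap5 (0.983), given as a description.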

How the data were processed

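RNA of whole liver was sequenced in 8 libraries. The deposited counts are whole numbers per gene symbol and library. The submitters' processing notes name HTSeq 0.6.1, STAR 2.6.0a and bcl2fastq 2.20.0.422, and the builds mm10 and GRCm38, without roles or order. Unused columns numbered 0. Annotation, strandedness and read filters: not given in the sources used here. More than 1 library kit is named in the labels' protocols, with none assigned to a library.

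The counts went into the quasi-likelihood F test of edgeR 4.0.16 (R 4.3.3, limma 3.58.1) with TMM scaling, edgeR's low-count filter and a single fit of the 4 groups (4 residual degrees of freedom, biological coefficient of variation 27.2%). P-values were adjusted by Benjamini-Hochberg over 13999 genes, at a threshold of 0.05. Log2 fold changes have a standard error (SE) taken from the F statistic. CPM use the TMM-scaled library size, and r uses log2 CPM with a prior count of 2. The code was tested on simulated data. Alternatives were DESeq2 1.42.0, RLE scaling, no filter, a stricter one (1 CPM in 2 libraries), the compared libraries alone, the replicate block, each library left out, and both doubted libraries left out. Lengths and overlaps came from GENCODE on GRCm38 (35 of 35 symbols matched), and near-identical copies from BLAST 2.17.0 (97% over 75 bases). Exon length is the union of the exons of all annotated transcripts of a gene. Which transcripts were expressed was not tested.

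The 35 genes, the lists and the rule for naming were chosen with earlier results of these data known. The rule named 12 genes always, the 3 with the smallest p per comparison, and all past the threshold. From each pathway list it named the genes past the threshold or, with none, the 2 with the smallest p.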

Additional observations from a re-analysis of the deposited data

How the results depend on the processing

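All results rest on 2 libraries per group, and the deposited counts carry no molecular identifiers. Comparing the control groups, edgeR called 333 genes and 19 of the 35. DESeq2 called 1527 genes and 31 of the 35, and the fit without both doubted libraries (replicate 2 of the Yap controls and of the labelled Ctgf knockouts) called 4056 and 35. The fit of the compared libraries alone called 0 and 0. Leaving out 1 library gave 0 to 3699 genes, 0 to 27 of the 35 and a median of 2.46 to 3.10. None of the 525 alternative fold changes of the 35 genes in this comparison reversed. For the Yap1 knockout, edgeR called 4 genes, DESeq2 509, the unfiltered fit 37, the fit of its own libraries 0, and the fit without both doubted libraries 938, with 1 of the 35 (Cdca8). Leaving out 1 library gave 0 to 3728 genes and a median of -1.04 to -0.0063. For the Ctgf knockout, DESeq2 called 4 genes, leaving out 1 library gave a median of -0.61 to -0.20, and the fit of its own libraries tested only 27 of the 35. For the difference of effects, DESeq2 called 142 genes, the unfiltered fit 2, the fit without both doubted libraries 143, and leaving out 1 library gave 0 to 2092 genes and a median of -0.46 to 0.27. The direction in the Yap1 knockout reversed for Mki67 (-1.12 to 0.54 over the libraries left out) and Top2a (-1.17 to 0.17) without Yap control replicate 1, and for Anln (-0.20 to 0.88) without Yap control replicate 2 (-0.20) and without both doubted libraries (-0.20). The cause was not tested. The labels share replicate numbers, and each Yap control is titled as the control for a numbered Yap knockout. The main fit did not use this pairing. Over all genes tested, same-numbered libraries deviated together only weakly (r = 0.07 in both lines, 2 pairs each). Over the 35 genes alone r was -0.13 in the Yap line and -0.02 in the Ctgf line. With the replicate block, 19 genes were called for the Yap1 knockout, and 449 genes and 16 of the 35 in the comparison of controls.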
